A study of Homo sapiens with 6 samples.

Results

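The background of an anti-TY chromatin immunoprecipitation was examined in cells that carry no TY epitope. The 3 untagged wild-type (WT) samples of the 6 samples in the series were used, at all 3000 transcription start sites (TSSs) that their deposited density table covers. Of the 9944 TSSs that the authors list, these 3000 ranked first by BrU-seq in WT gene bodies, a measure of nascent RNA by bromouridine labelling, so weakly transcribed genes are outside the range seen here. All samples came from untreated RPE1, a human cell line of retinal pigment epithelium that was immortalised, in a derivative labelled iCas9 p53/puro-dKO in both groups, so that the controls lack p53 too. The second group of 3 samples, CFAP20-KO + TY-CFAP20, additionally lacks endogenous CFAP20 and expresses TY-tagged CFAP20, and it is used only for comparison. All samples of both groups were crosslinked with DSG, for the same time. The sources used here do not say whether each group is 1 clone. Per the labels' protocols, the WT reactions held 84 µg of chromatin and 74 ng of Drosophila spike-in chromatin, and the tagged reactions 60 µg and 53 ng. The deposited density, in reads normalised to the spike-in, is 1 average per group, so no value below has an SD, an n of samples or a p-value. Percentiles and quartiles describe the spread between TSSs and are not errors.

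The control asks what an antibody pull-down retains where its epitope is absent. In chromatin immunoprecipitation such reads come from DNA that sticks to beads or antibody, and control libraries are known to hold more reads at open, easily sheared promoter chromatin than in closed chromatin. Active human promoters are known for a stretch just upstream of the start that is poor in nucleosomes, for a well-placed first nucleosome just inside the gene, and for CpG islands, stretches rich in unmethylated CpG dinucleotides.

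Promoter sequences from hg38 are shown for 2 of the TSSs where WT density rose most above its own flanks and 2 where it fell furthest below, by a log2 ratio explained further on. All lie no more than 100 bp from a start annotated for that gene. They are not the complete top of that order, since POLB, described further on, ranks between PXDN and ALG1L9P and its sequence is not shown. Each runs 5′ to 3′ on the strand of the gene over the 250 bases that end just before the TSS, with every CpG in capitals. The coordinates are chr2:1744507-1744756 for PXDN, chr11:71813860-71814109 for ALG1L9P, chr1:247171968-247172217 for ZNF124 and chr2:130198462-130198711 for TUBA3E, all on the minus strand.
PXDN: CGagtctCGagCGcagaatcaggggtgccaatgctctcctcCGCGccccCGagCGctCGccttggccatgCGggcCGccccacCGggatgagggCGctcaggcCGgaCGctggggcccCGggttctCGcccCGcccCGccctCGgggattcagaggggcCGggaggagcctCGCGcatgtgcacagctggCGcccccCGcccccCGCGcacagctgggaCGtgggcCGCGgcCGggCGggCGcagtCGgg
ALG1L9P: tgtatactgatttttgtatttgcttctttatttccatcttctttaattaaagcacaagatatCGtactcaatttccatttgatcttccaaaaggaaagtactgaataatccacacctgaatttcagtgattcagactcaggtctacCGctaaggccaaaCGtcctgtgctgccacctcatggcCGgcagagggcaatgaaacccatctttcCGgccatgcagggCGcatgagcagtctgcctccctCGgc
ZNF124: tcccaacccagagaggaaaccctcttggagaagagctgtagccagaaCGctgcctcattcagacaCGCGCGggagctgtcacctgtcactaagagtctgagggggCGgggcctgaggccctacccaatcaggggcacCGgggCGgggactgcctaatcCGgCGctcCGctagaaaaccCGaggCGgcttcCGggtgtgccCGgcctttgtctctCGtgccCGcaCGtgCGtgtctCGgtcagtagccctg
TUBA3E: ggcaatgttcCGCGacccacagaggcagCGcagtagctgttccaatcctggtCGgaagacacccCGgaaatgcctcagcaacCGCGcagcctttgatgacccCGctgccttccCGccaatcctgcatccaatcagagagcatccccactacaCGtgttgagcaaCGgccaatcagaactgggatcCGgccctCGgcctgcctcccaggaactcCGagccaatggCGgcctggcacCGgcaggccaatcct
The PXDN promoter held 33 CpGs at a GC content of 78%, and the ALG1L9P promoter 7 at 45.2%. The ZNF124 promoter held 19 at 64.8% and the TUBA3E promoter 16 at 62.4%. Over all 3000 TSSs the median was 17 CpGs and 61.2% GC.

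WT density rose slightly and broadly around start sites. Its mean was 0.795 from -500 to 500 bp (the window) and 0.678 in the flanks (4 to 5 kb from the TSS on either side), a ratio of 1.17. The flanks were not alike, at 0.655 upstream and 0.701 downstream. The window stood 1.21 times above the upstream flank and 1.13 times above the downstream one. The upstream flank includes a fall at the edge of the measured stretch, to 0.235 at -5000 bp, against 0.704 at 5000 bp. In the inner 500 bp of the flanks the means were 0.668 upstream and 0.698 downstream. In cells with TY-CFAP20 the same ratio of window to flanks was 1.75. The WT excess of window over flank, 0.117, equalled 19.9% of the excess of 0.584 in TY-CFAP20.

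The WT rise was wide and had a notch. Averaged over TSSs, density climbed to an upstream shoulder of 0.797 at -280 bp, dropped to 0.739 at -60 bp and reached its maximum of 0.843 at 200 bp inside genes. The notch was at 0.877 of the downstream maximum and at 1.09 times flank density, so it did not reach the level of the surroundings. The median over TSSs showed the same order, with 0.695 at -70 bp and 0.805 at 180 bp. TY-CFAP20 density had no such notch. It was 1.52 at -60 bp and peaked at 1.56 at 60 bp. Followed outward from its maximum, the smoothed WT profile fell below the midpoint of flank and maximum past -0.76 and 1.35 kb. The notch, which lies between these limits, was passed over. In TY-CFAP20, the smoothed positions above the corresponding midpoint lay from -0.36 to 0.61 kb. GC content rose from 44.8% in the flanks to 64.7% at -10 bp, and was 63.9% at the WT notch and again 64.7% at the WT maximum, so it was nearly level between the lowest and the highest WT point.

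WT density also stayed higher downstream of starts than upstream. From 1 to 4 kb it averaged 0.728 downstream and 0.690 upstream, a ratio of 1.06, and downstream exceeded upstream at 1844 TSSs (61.5%). Over 5 classes of 600 TSSs by gene length this ratio went from 1.01 in the shortest to 1.1 in the longest, and the share of TSSs with the higher downstream side from 52.2% to 69.2%. Over classes of BrU-seq it went from 1.05 in the lowest class to 1.09 in the highest, without a steady order between them. At 459 TSSs with an annotated divergent start within 1 kb upstream, density from 300 to 1000 bp was 0.809 downstream and 0.813 upstream, while at the other 2541 it was 0.791 and 0.760.

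**Figure D1:**
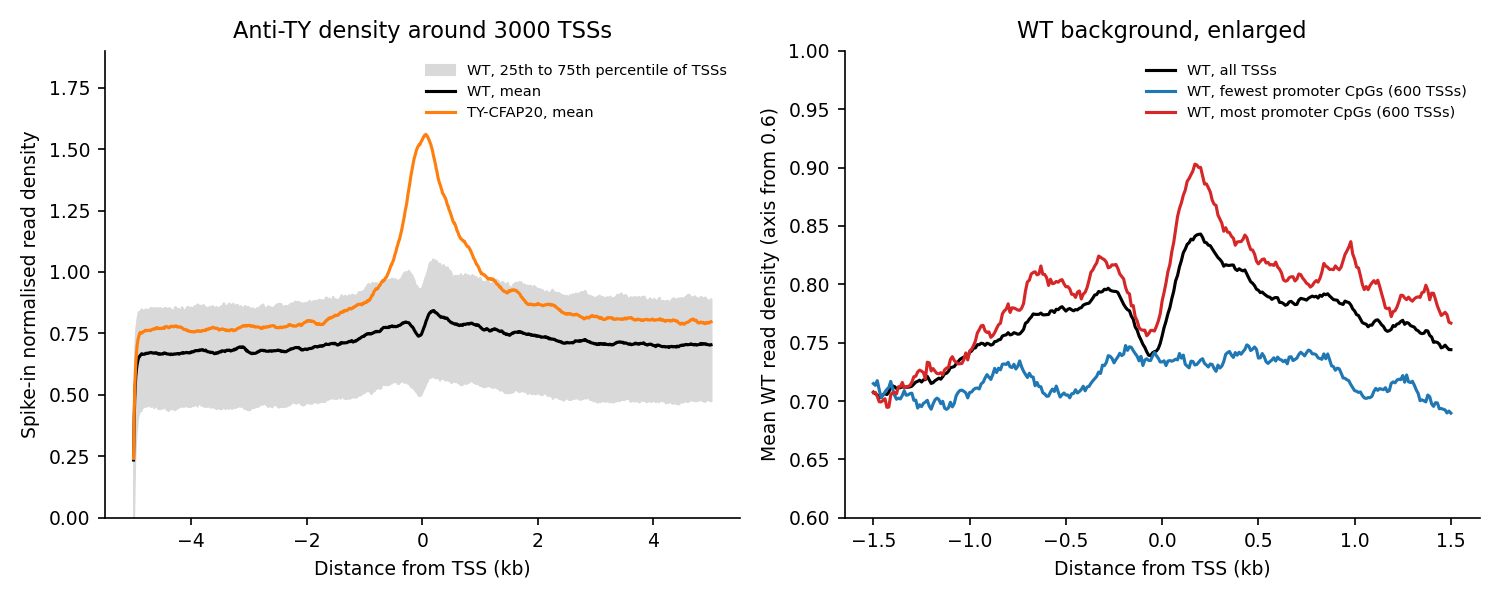
Left, spike-in normalised read density against distance from the TSS, as the mean over 3000 TSSs in WT (black) and TY-CFAP20 (orange), with the 25th to 75th percentile of TSSs in WT (grey). Right, mean WT density over all TSSs and in the 600 with the fewest and the most promoter CpGs, on an axis that starts at 0.6. The WT mean has a notch at -60 bp and a maximum at 200 bp, and the notch is not seen in the class with the fewest CpGs.

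The notch went with promoter sequence. CpGs were counted over 300 bases, from 250 before to 50 after the start. In the class with the fewest CpGs (median 3), WT density stayed between 0.725 and 0.748 from -300 bp to the downstream maximum, and its lowest point lay at 280 bp rather than upstream. In the class with the most (median 40) it went from 0.756 at -80 bp to 0.903 at 170 bp. The notch relative to the downstream maximum was 0.970 in the first class, 0.868, 0.805 and 0.871 in the next, and 0.837 in the last, so its depth did not follow the CpG count step by step. It was deeper, at 0.827, at the 36.3% of TSSs with CCAAT, the letters bound by the factor NF-Y, on either strand of the same 300 bases, than at those without (0.903). With GGGCGG, the core of the GC box bound by SP1, found at 60.2% of TSSs, it was 0.834 against 0.938 without. TATAAA, the TATA box letters, found at 8.30% of TSSs, differed little, at 0.862 against 0.876 without. Neighbouring matches of these motifs can share end letters. GGGCGG contains a CpG and went with higher GC content (median window GC 64.6% with and 53.8% without), and which of these properties the notch follows was not tested.

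Single TSSs varied more than the mean profile. Window density had a median of 0.782, with 25th and 75th percentiles of 0.664 and 0.913, 5th and 95th of 0.497 and 1.15, and a maximum of 3.17. Its coefficient of variation over TSSs was 26.4%, and that of the flanks 23%. WT density exceeded its own flank at 2128 TSSs (70.9%), and both of its flanks at 1623 (54.1%). TY-CFAP20 density exceeded its own flank at 2692 (89.7%). On the log2 scale, with the median WT flank density (0.668) added to both as a pseudocount, window over own flank had a median of 0.11 and quartiles of -0.02 and 0.25. The pseudocount makes the ratios of TSSs with low density smaller than they would be without it.

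A rise of at least 1.5 times on this scale was seen at 55 TSSs (1.83%), and a fall of at least 1.5 times at 5 (0.167%). The count depends on the scale, at 539 without a pseudocount among TSSs with a flank of at least 0.2, 0 with 4 times the pseudocount, and 107 and 18 with windows of 250 and 1000 bp on each side. The same threshold was passed upward at 1206 TSSs in TY-CFAP20 (40.2%). The last TSSs inside the threshold were FST, TNS3 and DCAF10 at 0.59, 0.59 and 0.60, and the first outside were ZBTB45, CSNK2A1 and NUAK2 at 0.58, 0.58 and 0.57, so the threshold cuts a continuous range. The 55 lay on 19 chromosomes. Their median window density was 1.25 and their median flank 0.527, against 0.779 and 0.671 for the other 2945, so they combined a high window with a low flank, as the way they were chosen requires. Measures not used to choose them differed too, at a median window GC content of 68.2% against 60.3% and a median of 31 promoter CpGs against 22. BrU-seq medians were 3.46 and 2.54. In TY-CFAP20, 47 of the 55 (85.5%) were at least 1.5 times above their own flank, against 39.4% of the others.

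Density at a TSS correlated only weakly with density a few kilobases away, and how far counting error lowers such correlations was not tested. Over the 3000 TSSs the upstream and downstream flanks of a TSS correlated at a Spearman rho of 0.229, and the window and its own flank at 0.218. Without chromosome 10 these were 0.170 and 0.147. The same windows in the 2 groups of cells correlated more, at 0.434 for windows, 0.430 for flanks and 0.368 for the log2 ratio of window to own flank. These points share the genome sequence, and the WT and TY-CFAP20 values share the mapping. Flanks of neighbouring TSSs correlated at 0.318 when 0 to 20 kb apart (136 pairs), where some flanks overlap, and at 0.189 when over 1000 kb apart (751 pairs), or 0.218 and 0.124 without chromosome 10.

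The highest window densities belonged to NBPF1, ARRB2, ZFYVE27, MINPP1, PPP1R3C and PXDN. NBPF1, of a gene family in segmental duplications of chromosome 1, stood at 3.17 with flanks of 2.42 upstream and 2.68 downstream, so its whole surroundings were high and its log2 ratio was only 0.25. ARRB2, which encodes beta-arrestin 2, stood at 1.64 over a flank of 0.481, and its listed TSS lies 107 bp from the nearest annotated start of the gene. ZFYVE27, which encodes the membrane protein protrudin, MINPP1, an inositol phosphate phosphatase, and PPP1R3C, a subunit that directs protein phosphatase 1 to glycogen, all lie on the long arm of chromosome 10, at 1.61, 1.61 and 1.59. TMEM14C, a mitochondrial membrane protein gene, was the median TSS at 0.782.

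PXDN, which encodes the collagen-crosslinking enzyme peroxidasin, had the highest log2 ratio with the pseudocount. Its window averaged 1.57, its upstream flank 0.346 and its downstream flank 0.503, a log2 ratio of 1.04. Within the window its density ranged from 0.2 to 2.54, and how much of the window was raised was not measured. POLB, which encodes the DNA repair enzyme DNA polymerase beta, followed at 1.19 over flanks of 0.0104 and 0.474, so that its upstream flank was nearly empty. Without the pseudocount POLB had the higher ratio of window to flank, 4.92 against 3.70 for PXDN. ARRB2 came next at 1.01 on the log2 scale. ALG1L9P, a pseudogene transcribed as a long non-coding RNA whose promoter is the CpG-poor one printed above, reached 0.89 with a window of 1.54, and TY-CFAP20 had no higher density there (1.45). Its window has a copy of 96.4% identity elsewhere in hg38, by the search described below. RP13-467H17.1, a long non-coding RNA gene, and CENPV, which encodes a centromere protein, reached 0.88 and 0.83.

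**Figure D2:**
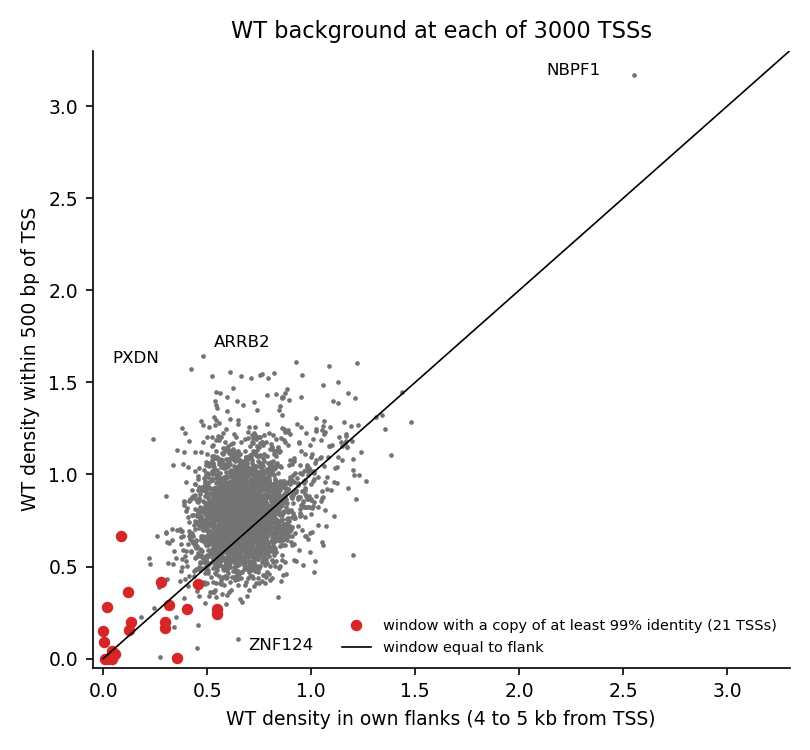
WT density within 500 bp of each TSS against WT density in its own flanks, one point for each of 3000 TSSs. Most points lie above the line of equal density, NBPF1 is high in both, and ARRB2 and PXDN are high only in the window. The 21 TSSs whose window has a near-identical copy elsewhere on the main chromosomes of hg38 (red) are low.

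At the other end, 3 TSSs had a WT density of exactly 0 throughout the window. These were AP001631.10, CH507-152C13.6 and RP11-381O7.3, and TY-CFAP20 was also 0 there. NUTM2A, of a family with several near-identical members, was at 0.00432, over a flank of 0.355. For each window, copies were sought elsewhere in hg38 by alignment over at least 90% of its length, a step chosen after low values were seen. All 4 windows had a copy on a main chromosome at 99.9% identity or more. Across TSSs, median WT density went down as the best copy on a main chromosome became more alike, with other sequences of the build left out. It was 0.786 at the 2902 TSSs with no such copy and 0.685 at 41 with a copy under 95% identity. It was 0.617 at 36 from 95% to under 99%, and 0.254 at 16 from 99% to under 99.9%. At the last 5, from 99.9% up, it was 0. Medians in TY-CFAP20 followed the same order from no copy to the most alike, at 1.4, 0.934, 0.895, 0.331 and 0. Of 26 TSSs below a density of 0.3, 17 had a copy at 99% or more on a main chromosome, 4 had one only on the other sequences of the build, and 5 had none at that identity. Among all TSSs, 21 had such a copy on a main chromosome, with a median WT density of 0.199. Those with one only on the other sequences numbered 60, with a median of 0.75 and quartiles of 0.618 and 0.848. Most TSSs of that second kind were therefore not low. The sources used here do not say how reads with several places in the genome were treated.

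**Figure D3:**
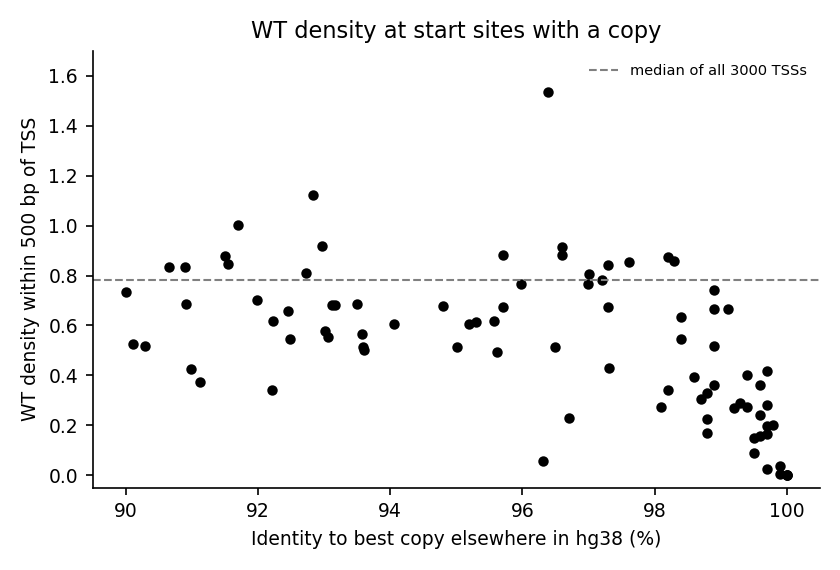
WT density within 500 bp of the TSS against the identity of the best copy of that window elsewhere on the main chromosomes of hg38, for the 86 TSSs with a copy of at least 90% identity, with the median of all 3000 TSSs as a dashed line. Windows above 99% identity lie below the line.

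The lowest ratios of window to own flank had no single pattern of copies. ZNF124, a zinc finger gene, had a window of 0.107 between flanks of 0.571 and 0.724, a log2 ratio of -0.76, with no copy found. TUBA3E, an alpha-tubulin gene, was at 0.0555 over 0.453, a ratio of -0.63, with a copy of 96.3% identity. NUTM2A was at -0.61. LINC01348, a long non-coding RNA gene, was at -0.60 with a window of 0.562 and an upstream flank of 1.7. TY-CFAP20 density in the windows of ZNF124 and TUBA3E was also low, at 0.284 and 0.0198.

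One position stood far above all others. At -3130 bp from the TSS of LINC00960, a long intergenic non-coding RNA gene on chromosome 3, WT density reached 65.6, while the next highest position at any other TSS, near RP5-1142A6.2, was 6.09 and the median of the highest position at each TSS was 1.68. Density stayed above 5, a level set after the profile was seen, over chr3:75669001-75669631, which is 631 bp long. TY-CFAP20 reached 50.1 at the same position, so WT was the higher group. GENCODE places DUX4L26 there, a processed pseudogene of the DUX4 gene of the D4Z4 repeat array, overlapping RPL23AP49, a ribosomal protein pseudogene on the other strand. The 150 bases at the centre of the peak, chr3:75669186-75669335 on the plus strand, have a GC content of 68.7% and 15 CpGs, in capitals.
DUX4L26 peak: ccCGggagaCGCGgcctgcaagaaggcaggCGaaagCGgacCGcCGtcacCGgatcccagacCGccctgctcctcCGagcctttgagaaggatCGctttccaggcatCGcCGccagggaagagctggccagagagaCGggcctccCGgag
This position alone lifted the WT mean over all TSSs at that distance from 0.671 to 0.693. It lies outside the window and the flanks used here, but within the stretch from 1 to 4 kb upstream, whose mean without this TSS was 0.688, with a downstream to upstream ratio of 1.06.

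WT density rose weakly with transcription. Spearman's rho of window density with BrU-seq was 0.114 over 3000 TSSs, and medians in 5 classes of 600 from low to high were 0.748, 0.779, 0.763, 0.787 and 0.815. Quartiles overlapped between all classes, at 0.617 to 0.887 in the lowest and 0.708 to 0.932 in the highest. With flank density rho was 0.0598 and with the log2 ratio 0.0534, and TY-CFAP20 windows gave 0.190. Between the lowest and highest class the downstream maximum went from 0.786 to 0.918, and the notch only from 0.729 to 0.751. These classes also differed upstream of the notch, with means of 0.737 and 0.809 at -500 bp, against 0.779 and 0.843 at 500 bp.

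The 3 genes with the most BrU-seq had more WT density in the downstream flank than at the start. CYR61, which encodes a matricellular protein induced by serum and had the highest BrU-seq level (1187), stood at 1.16 in the window, 0.621 in the upstream flank and 1.55 in the downstream flank. EEF1A1, the translation elongation factor, stood at 1.02, 0.781 and 1.15 in the same order. PPP1R15A, a stress-induced phosphatase subunit, stood at 0.824, 0.989 and 0.993. The downstream flank was thus the highest of the 3 values at each gene, but at PPP1R15A it hardly exceeded the upstream one. CYR61 and PPP1R15A are 3202 and 3666 bp long, so their downstream flank lies past the gene end. In the highest BrU-seq class of 600 TSSs, the median was 0.815 in the window and 0.6997 in the downstream flank. The order at these 3 genes was thus not that of the class medians. The share of all TSSs with a downstream flank above the window was not computed. Over all TSSs the downstream flank was at least 1.5 times the upstream one, with the pseudocount, at 38 (1.27%), and the reverse held at 14 (0.467%). With no minimum, the downstream flank was the higher at 1753 (58.4%). The upstream flank includes the fall of density at the upstream edge, and how far that adds to these counts was not tested.

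R-loops, hybrids of RNA with its DNA template, were measured by the authors as DRIP signal at the TSS in WT cells. Window density and DRIP correlated at 0.0988, and class medians were 0.752, 0.783, 0.782, 0.785 and 0.808. Flank density gave 0.0150. Within the 5 BrU-seq classes, rho with DRIP lay between 0.0248 and 0.133. EGR1, an immediate-early transcription factor gene and the one with the highest DRIP signal, stood at 0.817 in WT, close to the median of all TSSs, and RP11-1334A24.5 and PPP1R15A, the next, at 0.777 and 0.824.

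Gene length had a relation of similar size, with a rho of 0.117 and class medians of 0.749, 0.776, 0.790, 0.798 and 0.803 from short to long. For the flanks, rho was 0.110 downstream and -0.0107 upstream. The shortest class spans 3004 to 6719 bp, so the downstream flank of many of its genes lies past the gene end. Within BrU-seq classes the relation was strongest at low transcription, with a rho of 0.287 in the lowest class, 0.252 and 0.163 in the next, and 0.0849 and 0.0571 in the last. Given the ranks of the other measures (BrU-seq, DRIP, length and window GC), partial rho was 0.160 for length, 0.142 for BrU-seq, 0.0417 for DRIP and 0.0347 for window GC. Among the longest genes, FRMD5, EXT1, a heparan sulfate polymerase gene, and CAMK2D, a calcium-dependent kinase gene, stood at 0.838, 1.24 and 0.862. The shortest, the non-coding AL133243.2, LINC00311 and RP11-688I9.2, stood at 0.540, 0.510 and 0.808, of which the first pair lay below their own flanks.

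Base composition moved with the flanks and the windows in opposite ways. Flank density was lower where flank GC was higher, with a rho of -0.284 and class medians from 0.721 down to 0.619. Window density was higher where window GC was higher (0.116), and promoter CpG count gave 0.155. In TY-CFAP20 the window rho was 0.419 for GC and 0.465 for CpG count. All of these points share a sequencing library per sample and the same base composition along the genome. With window density divided by the median of its GC class, an alternative added after seeing the data, rho was 0.103 for BrU-seq, 0.0685 for DRIP and 0.0866 for length.

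**Figure D4:**
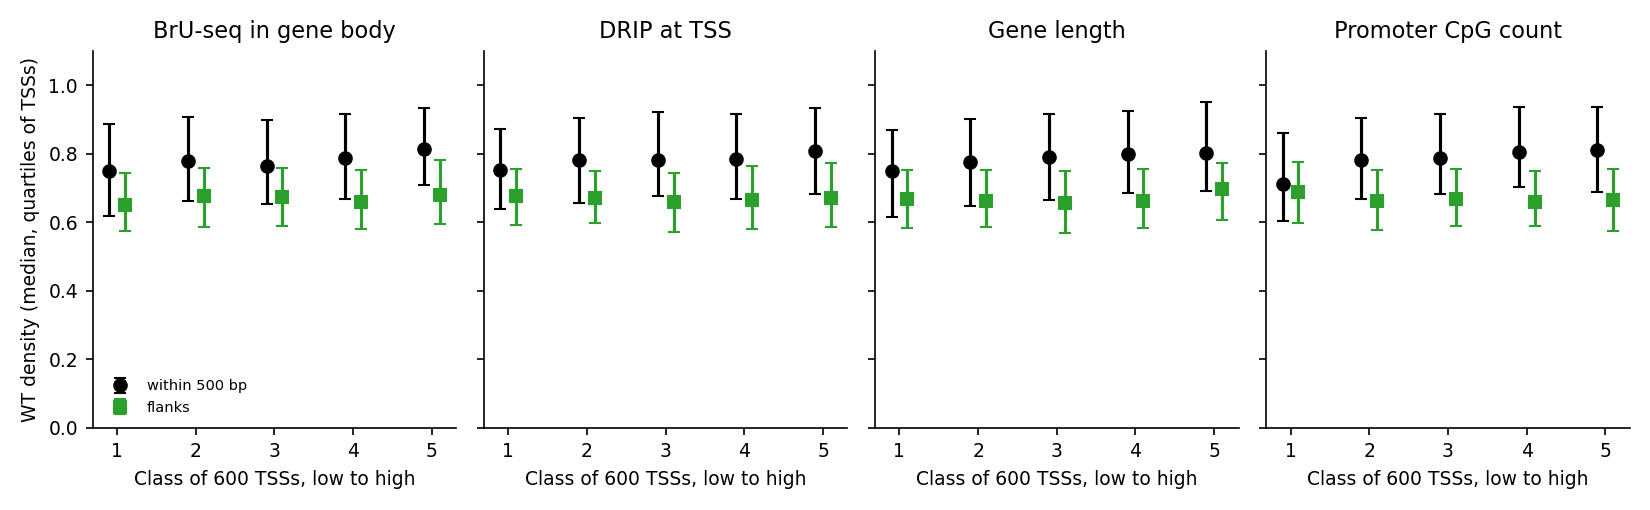
Median WT density with quartiles over TSSs, within 500 bp of the TSS (black circles) and in the flanks (green squares), in 5 classes of 600 TSSs ordered from low to high by BrU-seq, DRIP, gene length and promoter CpG count. Window medians rise by less than the quartiles span, and flank medians change less.

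Lists of gene groups, chosen with earlier results of these data known, were then counted against the 70.9% of all TSSs above their own flank and the median window density of 0.782. Of 16 cytosolic ribosomal protein genes measured, 12 exceeded their own flank, with a median of 0.817 and a range from RPL39L at 0.480 to RPS24 at 1.28. Of 11 immediate-early genes 9 did, with a median of 0.935, from KLF6 (0.636) to DUSP5, a phosphatase gene (1.17). The 4 heat shock genes all did, from HSPH1 (0.780) to the co-chaperone gene BAG3 (1.3). RPS24, DUSP5 and BAG3 lie on the long arm of chromosome 10. Both replication-dependent histone genes did, HIST1H3E at 0.848 and HIST1H4H at 0.8. Of 139 zinc finger genes 107 did, with a median of 0.765, from ZNF124 (0.107) to ZNF223 (1.26). Of 10 genes taken by symbol for families in segmental duplications 7 did, with a median of 0.660 and flanks of 0.501, from NBPF9 (0.272) to NBPF1 (3.17). One of the 10, SMNDC1, was matched by the start of its symbol only. EEF1A1 was the single abundant housekeeping gene measured, and no abundant nuclear non-coding RNA gene of the list was. On the log2 scale with the pseudocount, none of these lists held a TSS at least 1.5 times above its own flank, against 1.83% of all TSSs, and ZNF124 was the only member at least 1.5 times below. That scale understates low densities, and without the pseudocount NBPF12, for example, chosen after its values were seen, had a window of 0.546 over a flank of 0.223.

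The pigment epithelium label was checked in the authors' BrU-seq values. Of the defining regulators, OTX2 was at 10.0 and MITF at 1.4, while RLBP1, a retinoid-binding protein gene, was at 0.235. RPE65, CRX and TTR had no BrU-seq value. At their own start sites, the 2 measured regulators lay at 0.647 and 0.868 in WT.

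In flank density, chromosomes differed more than classes of transcription, whose flank medians lay between 0.650 and 0.680. Median flank density lay between 0.603 and 0.720 on 21 of 23 chromosomes. Chromosome 10 was at 0.923, 1.38 times the median chromosome, and chromosome X at 0.596, 0.890 times. Window medians on the 21 lay between 0.745 and 0.809, no wider than over BrU-seq classes (0.748 to 0.815). Only chromosome 10, at 1.04, and X, at 0.653, lay outside that range. Over the 21, flank medians were lower on chromosomes with GC-richer flanks, at a rho of -0.708. Window over own flank hardly differed on chromosome 10, where the median log2 ratio was 0.10 against 0.11 over all TSSs, so window and flank were raised there alike. RPE1 is known to carry extra material of the long arm of chromosome 10. Beyond 60 Mb on chromosome 10, a position taken from earlier results, flank density was 1.5 times that of all other chromosomes besides X in WT and 1.57 times in TY-CFAP20.

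Chromosome X changed along its length in WT, and far less in TY-CFAP20. In blocks of 20 Mb, the 153 blocks with at least 5 TSSs ranked highest on chromosome 10 at 60 to 120 Mb, followed by chromosome X at 120 to 140 and 140 to 160 Mb. Split at 120 Mb, a position chosen after these blocks were seen, median flank density on X was 0.551 over 68 TSSs before and 0.921 over 24 beyond, a ratio of 1.67. In TY-CFAP20 the same medians were 0.567 and 0.6, a ratio of 1.06. Windows changed by 1.56 times in WT and 1.04 times in TY-CFAP20. Beyond 120 Mb, 19 of the 24 TSSs had a WT flank above the highest of the 68 before, and in TY-CFAP20 1 did.

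The change on X fell between TSSs that are neighbours among the 3000. The stretch between them was not measured, so the change is not placed more closely. UPF3B, a nonsense-mediated decay factor gene with its TSS at 119.853 Mb, was the last before the change. It had a WT flank of 0.542 and a window of 0.537. LAMP2, a lysosomal membrane protein gene at 120.469 Mb, was the first beyond, at 1.48 and 1.29. CUL4B, a ubiquitin ligase scaffold gene, followed at a flank of 1.08, MCTS1, a translation factor gene, at 1.44, and C1GALT1C1, a chaperone gene of O-glycosylation, at 1.23. TY-CFAP20 flanks at these 5 genes were 0.496, 0.474, 0.647, 0.625 and 0.514, without the change. HPRT1, the purine salvage gene further along, stood at 0.807 in WT and 0.695 in TY-CFAP20. DNA copy number was not measured in the files used here, and since the WT values are 1 average, whether 1 or all of the 3 WT samples carried the change cannot be told apart.

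**Figure D5:**
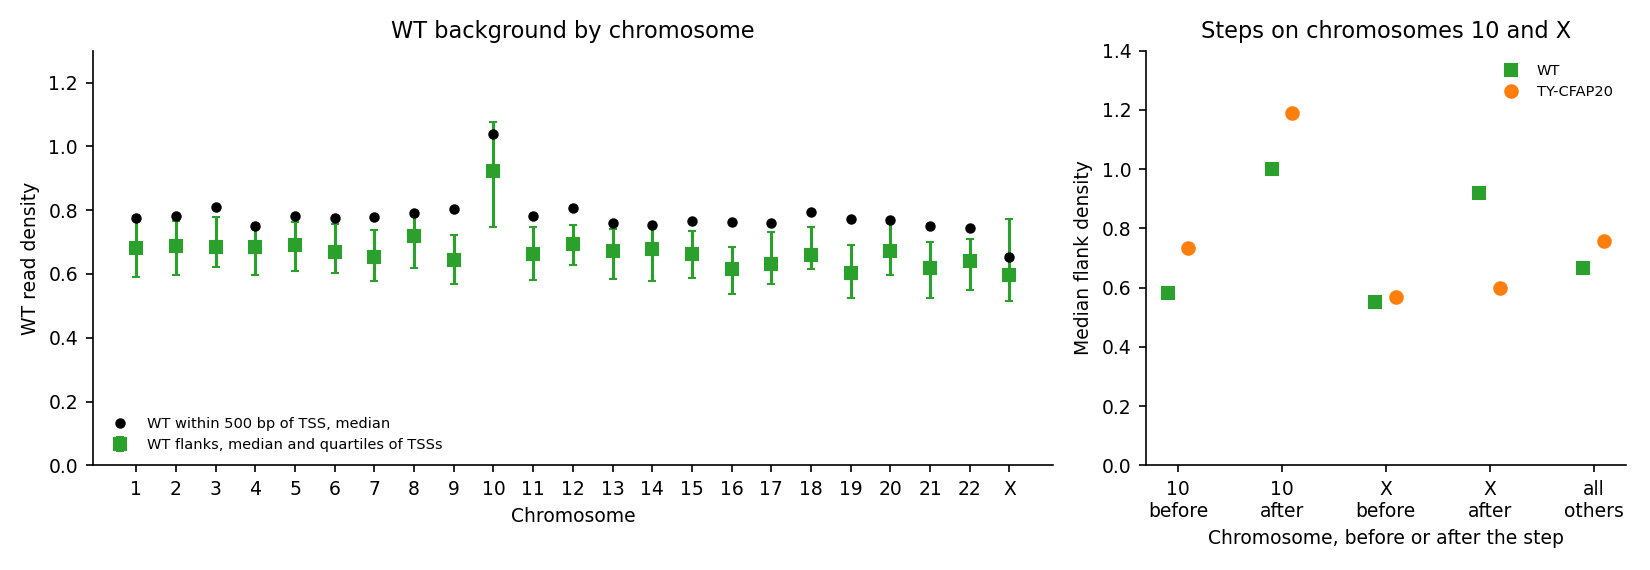
Left, median WT flank density with quartiles over TSSs (green squares) and median WT window density (black circles) for each of 23 chromosomes. Right, median flank density in WT and TY-CFAP20 before and after 60 Mb on chromosome 10 and 120 Mb on chromosome X, beside all other chromosomes. Both groups step up on chromosome 10, and on X the step is 1.67 times in WT and 1.06 times in TY-CFAP20.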

How the data were processed

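Anti-TY ChIP-seq was measured in 3 untagged WT and 3 TY-CFAP20 samples. Tools listed in the submitters' processing notes, without the role of each, are R 4.0.5, STAR 2.7.7a, HOMER 4.8.2, SAMtools 1.11, BWA 0.7.17 and Trim Galore 0.6.5, with the builds hg38 and BDGP6. The sources used here do not say how the spike-in scaling was made. The authors deposited read density as a signal, averaged over the samples of a group, at 1001 positions 10 bp apart for 3000 TSSs. A further table deposited by the authors holds the signal of BrU-seq and DRIP. Library totals are unknown. WT values were sums of 3 steps (0.0233, 0.0417 and 0.0967), which would correspond to between 8.22 and 34.1 fragments per position in the window if each step is 1 fragment of 1 sample. Density falls at the upstream edge, to 0.235 at the first position. All columns used were matched to a group (0 columns of sample values were unmatched).

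Window and flank means, classes of equal size and Spearman correlations were computed per TSS, with no test because there are no replicate values. TSS positions are 1-based. GC content, CpGs and motifs came from the hg38 sequence, starts and biotypes from GENCODE 44, with 2965 of the 3000 gene IDs matched and 2584 TSSs no more than 100 bp from a start annotated for that gene. Copies were found with minimap2 2.31 at 90% of the window. The genes named were the 6 highest and 4 lowest by window and by log2 ratio over own flank, the median TSS, 3 extremes each of BrU-seq and DRIP (highest) and of length (both ends), and the highest and lowest of each list. The TSSs around LINC00960, near the 1.5-fold threshold and along chromosome X were named after their values were seen. The members and lists were chosen with earlier results of these data known. Functions were checked on simulated densities. Alternatives covered the window, flank, pseudocount, threshold and TSSs used. The software was matplotlib 3.10.9, pysam 0.24.0, scipy 1.17.1, pandas 2.3.3, numpy 2.4.6 and Python 3.11.15.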

Additional observations from a re-analysis of the deposited data

How the results depend on the processing

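No paired analysis was possible because the deposited values are group averages, and for the same reason no sample could be left out. With no replicate error, a value was taken as moved when it changed by over 1.5 times, a tolerance chosen after the values were seen. Of 70 alternatives, 10 of them added after seeing the data (without TSSs that have a near-identical copy, and density divided by the median of its GC class), 60 did not move, 10 moved and 0 reversed. The ratio of window to flank stayed between 1.16 and 1.17, the notch over the downstream maximum between 0.862 and 0.879, and the highest chromosome over the median chromosome between 1.34 and 1.42. The count of 55 TSSs at least 1.5-fold above their own flank was set by the scale. It was 107 with a window from -250 to 250 bp, 18 with -1000 to 1000 bp, 539 without a pseudocount and with a minimum flank density of 0.2, 0 with 4 times the pseudocount and 3 at 2-fold. With the log2 ratio over own flank in place of window density, rho was 0.0534 for BrU-seq and 0.0731 for gene length. With flank density it was 0.0598 for BrU-seq, 0.0150 for DRIP and 0.0577 for gene length. Otherwise rho lay between 0.0763 and 0.154 with BrU-seq, between 0.0685 and 0.147 with DRIP, and between 0.0866 and 0.142 with length. Depth per sample is unknown, so differences between single TSSs cannot be set against counting error.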
